A study of Sus scrofa with 15 samples.

Results

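FOS, FOSB, JUN, JUNB, ATF3, EGR1, NR4A1, IER2, DUSP1 and GADD45B were followed in piglet testis as a set of immediate early and stress response genes. They were chosen by name. The table of testis RNA-seq holds 30476 genes, and 8 of the 10 names were found there by symbol. JUN and IER2 had no row under their symbols, but the name table paired each with a row that carries only an Ensembl identifier, and they are described beside the 8 and not counted with them.

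Immediate early genes are transcribed within minutes of a growth factor, hormone, mechanical or stress stimulus, without the need for new protein synthesis. The kinases that receive the stimulus act on transcription factors already present in the nucleus, such as SRF and CREB. Many of the products are transcription factors themselves, and others, such as DUSP1, switch the kinases off again. In the testis, luteinizing hormone is known to raise several of them in Leydig cells.

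The animals were male piglets of Dutch Landrace Duroc sows that suckled for the first days of life. From postnatal day 2 to day 21 they drank from bowls. Milk received a formula based on cow's milk, M + E2 the same formula with 17-beta-estradiol, M + G the same formula with genistein at 84 mg/L, Soy a formula based on soy, and Sow commercial sow milk. The methods give that genistein concentration for the diet, whereas the sample labels give it for serum. Piglets were anaesthetised and killed some hours after the last meal, and the testes were snap-frozen, with 3 libraries sequenced for each of the 5 diets.

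The libraries held between 6097552 and 9488579 reads on genes (median 8198038). The sample labels do not say whether each library came from a separate piglet, so p-values measure the spread between libraries. Levels are reads of a gene relative to the scaled size of the library (CPM, with scaling by the TMM method). They are not per transcript length, so they were compared between libraries and not between genes. The Leydig cell hormone INSL3 (2959 to 6543 CPM) and the Sertoli cell hormone AMH (286 to 1271 CPM) were present in every library. Sow 2, which the study left out for low correlation with other libraries, was kept in the levels and left out of the tests, apart from the alternatives named as using it. The fits without Sow unnumbered or without Sow 3 also use it, since Sow 2 was put back in them. Milk 2, Soy 3 and M + G 2 stood apart from the other 12 libraries in several of the genes and in markers of smooth muscle, as given below. Fold changes and correlations of the set that rest on them are given with and without them. Fold changes of cell markers are given with them only.

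All 10 genes passed the filter on low counts. In the Sscrofa11.1 assembly as annotated by RefSeq, FOS lies at chr7:98449508-98451971, FOSB at chr6:51836780-51844531, JUN at chr6:153686425-153687635, JUNB at chr2:66214086-66219435 and ATF3 at chr9:130772259-130829678. EGR1 lies at chr2:140440829-140445302, NR4A1 at chr5:17403088-17407918 and IER2 at chr2:65909638-65912491, in the same stretch of chromosome 2 as JUNB. DUSP1 lies at chr16:51457924-51461095 and GADD45B at chr2:76107928-76111458. RefSeq lists the pig NR4A1 entry as a pseudogene and the other 9 as protein coding. The sources used here do not say whether reads were counted by strand, so reads of antisense neighbours could not be told apart from those of the genes.

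FOS, which pairs with JUN proteins to form the transcription factor AP-1, was measured at 14.6, 17.3 and 13.5 CPM in Sow unnumbered, Sow 2 and Sow 3. In Milk 1, 2 and 3 it was at 18.9, 77.6 and 21.1 CPM, and in Soy unnumbered, Soy 2 and Soy 3 at 16.3, 22.0 and 62.0 CPM. In M + E2 1 to 3 it was at 13.98, 22.4 and 15.7 CPM, and in M + G 1 to 3 at 17.0, 35.1 and 22.0 CPM. A single library thus stood above the rest in Milk, in Soy and in M + G, while the other 12 libraries lay within 13.5 and 22.4 CPM. The group means were, in falling order, 39.2 ± 33.3 CPM in Milk, 33.4 ± 24.9 in Soy, 24.7 ± 9.31 in M + G, 17.4 ± 4.47 in M + E2 and 15.2 ± 1.97 in Sow (SD, n = 3), and no neighbours in this order differed beyond their spread.

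FOSB, a close relative of FOS with the same partners, had the widest relative range of the 10 genes and the fewest reads, from 1 read in Sow 2 to 106 in Soy 3. Its levels were 1.21, 0.146 and 1.32 CPM in Sow unnumbered, Sow 2 and Sow 3, and 2.21, 11.6 and 1.37 CPM in Milk 1 to 3. They were 1.05, 3.83 and 12.1 CPM in Soy unnumbered, Soy 2 and Soy 3, 0.865, 0.892 and 0.956 CPM in M + E2 1 to 3, and 1.67, 6.05 and 1.22 CPM in M + G 1 to 3. The same 3 libraries as for FOS were the highest of the 15. M + E2 had the narrowest values, and all of its libraries lay below every Milk and Soy library.

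JUN, the most studied partner of FOS, stayed between 4.52 CPM in Sow 2 and 9.55 CPM in Soy 3 over the 15 libraries, with a median of 6.99 CPM. Its group means lay between 6.79 ± 0.213 CPM in M + E2 and 7.73 ± 1.01 CPM in M + G (SD, n = 3), and all groups overlapped. JUNB, which often opposes JUN on shared target genes, showed another pattern. It was measured at 17.9, 15.0 and 18.2 CPM in Sow unnumbered, Sow 2 and Sow 3 and at 17.4, 16.2 and 13.3 CPM in Milk 1 to 3. It was lower in Soy (11.5, 11.5 and 12.5 CPM), M + E2 1 to 3 (9.94, 14.02 and 8.39 CPM) and M + G 1 to 3 (10.1, 13.4 and 13.2 CPM). Every Sow library lay above every Soy, M + E2 and M + G library, and Milk 2, Soy 3 and M + G 2 were within the range of the others. ATF3, a stress-induced factor that can also bind AP-1 sites, ranged from 10.2 CPM in Soy unnumbered to 19.5 CPM in M + E2 3, with a median of 13.5 CPM and overlap among all groups.

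EGR1, a zinc finger transcription factor that growth factors and gonadotropins induce, was measured at 46.6, 38.3 and 60.5 CPM in Sow unnumbered, Sow 2 and Sow 3. It was at 57.6, 155 and 92.6 CPM in Milk 1 to 3 and at 56.6, 62.7 and 102 CPM in Soy unnumbered, Soy 2 and Soy 3. It was at 90.5, 100.5 and 71.2 CPM in M + E2 1 to 3 and at 93.7, 135 and 117 CPM in M + G 1 to 3. All M + E2 and all M + G libraries were above all Sow libraries, and Milk and Soy overlapped with Sow. The group means ran from 48.5 ± 11.2 CPM in Sow through 73.6 ± 24.4 in Soy, 87.4 ± 14.9 in M + E2 and 102 ± 49.4 in Milk to 115 ± 20.6 in M + G (SD, n = 3).

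NR4A1, an orphan nuclear receptor that luteinizing hormone induces in Leydig cells, was measured at 115, 48.0 and 34.6 CPM in Sow unnumbered, Sow 2 and Sow 3, so that Sow alone spanned most of its range. It was at 68.5, 83.4 and 74.2 CPM in Milk 1 to 3, at 40.2, 47.9 and 107 CPM in Soy unnumbered, Soy 2 and Soy 3, at 35.9, 57.9 and 47.5 CPM in M + E2 1 to 3, and at 20.1, 50.6 and 60.5 CPM in M + G 1 to 3. Every Milk library lay above every M + E2 and M + G library. IER2, a small nuclear protein of less known function, ranged from 23.5 CPM in Sow 2 to 50.7 CPM in Milk 2, with M + G 2 at 42.2 CPM and Soy 3 at 35.0 CPM next in order. Milk 1 followed at 34.8 CPM, so Soy 3 was barely above it.

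DUSP1, the phosphatase that inactivates p38, JNK and ERK and so ends the response, was measured at 72.9, 59.5 and 72.6 CPM in Sow unnumbered, Sow 2 and Sow 3 and at 66.6, 82.2 and 65.7 CPM in Milk 1 to 3. It was at 56.3, 71.3 and 116 CPM in Soy unnumbered, Soy 2 and Soy 3, at 37.6, 58.1 and 43.0 CPM in M + E2 1 to 3 and at 31.8, 78.1 and 56.7 CPM in M + G 1 to 3. Soy 3, Milk 2 and M + G 2 were again the highest of the 15 libraries, and M + E2 lay below every Sow and Milk library. GADD45B, which links stress signals to p38 and JNK and takes part in DNA repair and demethylation, was measured at 45.4, 31.5 and 30.5 CPM in Sow unnumbered, Sow 2 and Sow 3 and at 45.9, 41.6 and 32.3 CPM in Milk 1 to 3. In Soy unnumbered, Soy 2 and Soy 3 it was at 22.4, 17.5 and 26.2 CPM, below every Sow and Milk library. In M + E2 1 to 3 (21.6, 39.6 and 26.8 CPM) and in M + G 1 to 3 (17.4, 35.6 and 26.2 CPM) it overlapped with both.

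**Figure D1:**
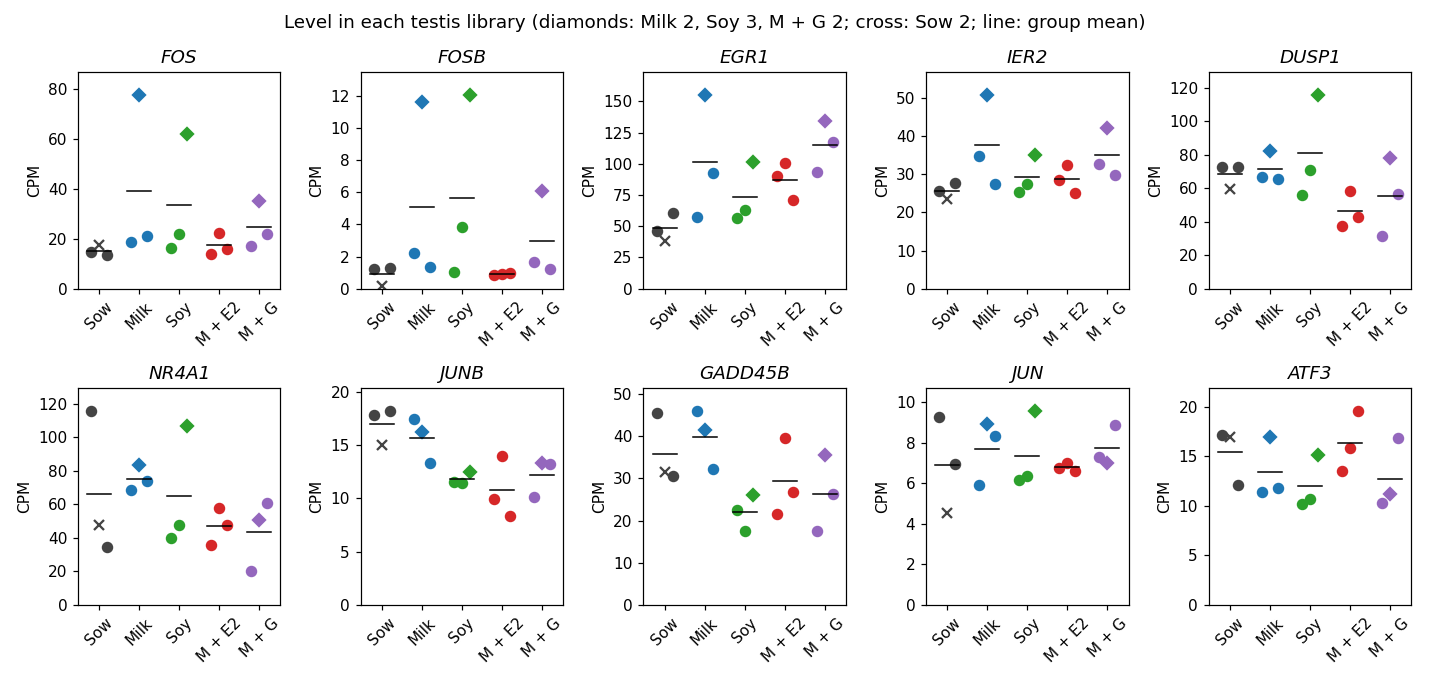
Level of each gene in CPM (y axis, from 0) in the 15 testis libraries by diet (x axis), with a line at the mean of the 3 libraries of a diet, diamonds for Milk 2, Soy 3 and M + G 2, and a cross for Sow 2. FOS reached 77.6, 62.0 and 35.1 CPM in the libraries drawn as diamonds and at most 22.4 CPM elsewhere, whereas JUNB was between 15.0 and 18.2 CPM in Sow and between 8.39 and 14.02 CPM in Soy, M + E2 and M + G.

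The genes differed in how much they varied between libraries of the same diet. The within-group SD of log2 CPM was 1.31 for FOSB, 0.74 for FOS and 0.67 for NR4A1, at the 99.4th, 93.4th and 90.4th percentiles of the 15634 genes tested. EGR1 (0.44), DUSP1 (0.42) and GADD45B (0.38) were above the median of all tested genes, which was 0.34. JUN (0.32), ATF3 (0.31), IER2 (0.27) and JUNB (0.23) were below it. FOSB, FOS and NR4A1 thus varied more within a diet than 9 in 10 genes of this tissue, and JUNB varied less than most.

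The high values were gathered in few libraries. Of the 8 genes found by symbol, Soy 3 was the highest of the Soy libraries for 8, against 36.8% of all tested genes. Milk 2 was the highest Milk library for 6 (background 33.6%) and M + G 2 the highest M + G library for 6 (38.1%). M + E2 2 was also the highest of its diet for 6 (36.2%), where its FOS level was 1.51 times the mean of the other M + E2 libraries. In Sow, the highest library was the unnumbered for 4 genes (23.1%), Sow 3 for 3 (35.2%) and Sow 2 for 1 (41.7%). Milk 3 (41.0%), Soy unnumbered (38.3%), Soy 2 (24.8%), M + E2 1 (28.7%) and M + G 1 (28.9%) were the highest of their diet for 0 of 8, and Milk 1 (25.4%), M + E2 3 (35.1%) and M + G 3 (33.1%) for 2 of 8. FOS, FOSB, EGR1 and DUSP1 were highest in Milk 2, Soy 3 and M + G 2 alike, which is 4 of 8 genes against 10.4% of all tested genes. These libraries were singled out after the levels of genes of this set were seen, so the count is a description and not a test. FOS was 3.88 times the mean of the other Milk libraries in Milk 2, 3.24 times that of the other Soy libraries in Soy 3 and 1.80 times that of the other M + G libraries in M + G 2. The corresponding ratios were 6.50, 4.94 and 4.19 for FOSB, 2.07, 1.70 and 1.28 for EGR1, and 1.24, 1.82 and 1.76 for DUSP1.

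**Figure D2:**
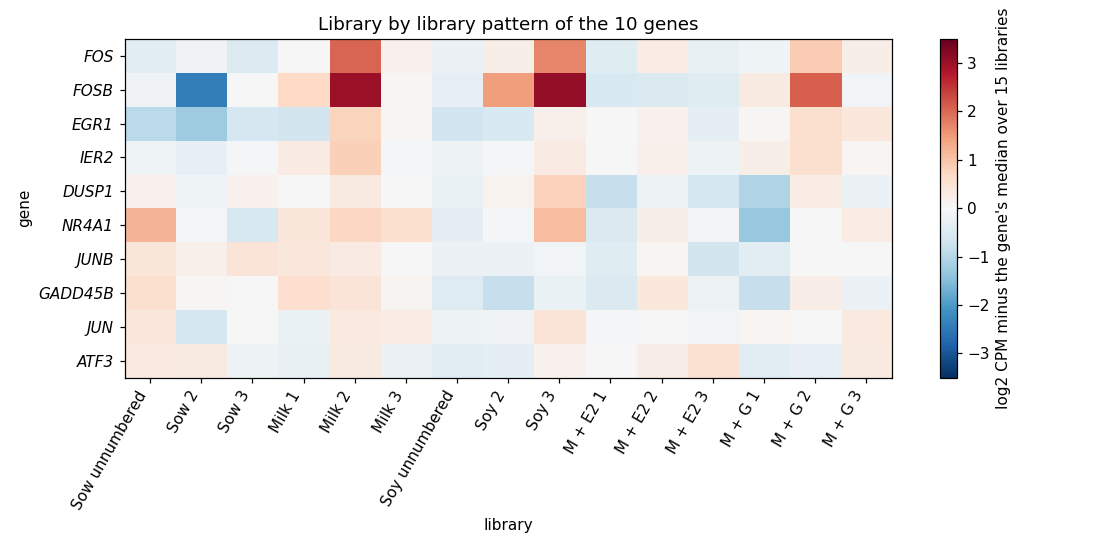
Heat map of the 10 genes (rows) in the 15 libraries (columns), coloured by log2 CPM minus the median of the gene over the 15 libraries, red above and blue below it. The darkest red cells are FOSB and FOS in Milk 2 and Soy 3, with M + G 2 next, and the darkest blue cell is FOSB in Sow 2, which rests on 1 read.

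Markers of several other cell types moved with these 3 libraries. All 6 markers of peritubular myoid and smooth muscle cells (ACTA2, MYH11, TAGLN, CNN1, DES and ACTG2) were higher in Milk 2, Soy 3 and M + G 2 than in any of the other 12 libraries. Their summed level was 3440 CPM in Milk 2, 4340 CPM in Soy 3 and 2426 CPM in M + G 2, and between 288 and 1009 CPM in the other 12. The summed level of 8 macrophage markers was 809, 490 and 467 CPM in these libraries and between 317 and 441 CPM in the other 12. For 9 endothelial markers it was 1005 to 1413 CPM in the 3 libraries and 367 to 1028 CPM in the others. Within their diets, these 3 libraries also had the highest sums of endothelial, germ cell (161, 244 and 186 CPM) and erythroid markers (1541, 971 and 1392 CPM). HBB alone was at 1462, 884 and 1320 CPM. Gene by gene, Milk 2, Soy 3 and M + G 2 were highest of their diet for 2, 6 and 3 of 7 erythroid markers. For the 4 germ cell markers tested it was 4, 3 and 3 (all tested genes: 33.6%, 36.8% and 38.1%). For the 6 epithelial markers of epididymis and rete it was 0, 1 and 6, with sums of 134, 171 and 366 CPM. The 3 libraries were thus not alike in every marker list. Each of the 3 libraries had the lowest sum of its diet for Leydig cell markers (10654, 18223 and 16607 CPM) and for Sertoli cell markers (718, 1105 and 1103 CPM). The share of mitochondrial reads was 4.49%, 6.72% and 5.05% in Milk 2, Soy 3 and M + G 2, each the lowest of its diet. These shares lay within the range of 4.36% to 9.65% of the remaining libraries of all diets. The part of these cell types in the FOS, FOSB, EGR1 and DUSP1 levels was not tested. In whole tissue, fewer or more cells of a type and less or more RNA per cell cannot be told apart.

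**Figure D3:**
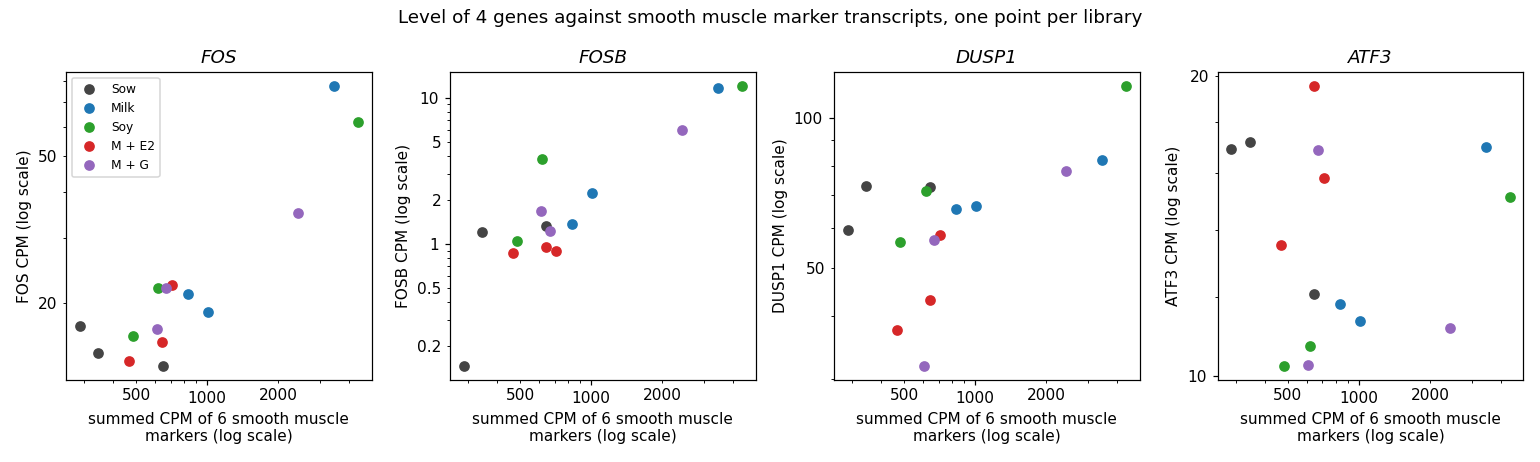
Level of FOS, FOSB, DUSP1 and ATF3 in CPM (y axes, log scale) against the summed CPM of the 6 smooth muscle markers (x axes, log scale), with 1 point per library coloured by diet. The points at the right, from 2426 to 4340 CPM of marker transcripts, are M + G 2, Milk 2 and Soy 3 and lie highest for FOS, FOSB and DUSP1, but within the range of the others for ATF3.

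The diets were then compared to ask whether any feeding changed these genes. A gene was called where its p, adjusted by Benjamini-Hochberg over all tested genes, was at most 0.05 and its change reached 2-fold. For the test of any difference, which has no single fold change, the adjusted p alone was used. In edgeR's quasi-likelihood test of any difference among the 5 diets, 0 of the 8 genes were called, against 0.0640% of all tested genes, and JUNB alone had an unadjusted p below 0.05 (18.1% of all tested genes). Its adjusted p was 0.228, and those of the other 7 ran up to 0.705. Against Sow, 0 of 8 were called for M + E2 (background 5.0%), M + G (0.0576%), Soy (0.0128%) and Milk (0.0192%). Against Milk, 0 of 8 were called in M + E2, M + G and Soy, where the background was 0. In Soy versus M + E2, 0 of 8 were called (0.147%). JUN and IER2 were not called in any of these comparisons, and neither had an unadjusted p below 0.05. DESeq2's test also called 0 of 8 in each comparison, and edgeR's exact test called EGR1 in M + G versus Sow.

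The groups were also compared by whether their libraries overlapped, with 2 libraries for Sow. In M + E2 versus Sow 4 of 8 genes did not overlap (62.2% of all tested genes), and in M + G (53.9%), Soy (37.3%) and Milk (31.1%) 3 of 8 each. Against Milk it was 3 of 8 for M + E2 (17.5%), 1 of 8 for M + G (4.65%), which was NR4A1, and 2 of 8 for Soy (4.62%), which were JUNB and GADD45B. Between Soy and M + E2 it was FOSB alone (1 of 8, 20.6%).

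With M + E2 versus Sow, 1 of 8 genes had an unadjusted p below 0.05, against 33.8% of all tested genes. It was JUNB, with a log2 fold change of −0.81 (SE 0.22) and an adjusted p of 0.0468 in edgeR's quasi-likelihood test, which passed on p and stayed under the 2-fold limit. The adjusted p was above 0.05 without Sow 3, without Soy 2, and without any of the M + E2 or M + G libraries (0.0555 to 0.129), and with no filter on low counts (0.0788). The 8 log2 fold changes lay between −0.81 and 0.64 with a median of −0.49, beside a median of 0.0095 over all tested genes. Sertoli cell markers summed to between 2184 and 2320 CPM in M + E2 and between 989 and 1422 CPM in Sow, and Leydig cell markers to between 13369 and 14195 CPM in M + E2 and between 19755 and 20288 CPM in Sow. Endothelial markers summed to between 765 and 1028 CPM in M + E2 and between 367 and 523 CPM in Sow, and germ cell markers to between 214 and 269 CPM against 146 to 167 CPM. Of the 4 germ cell markers tested, 2 were higher and 2 lower in M + E2, with a median log2 fold change of −0.013. Epithelial markers of epididymis and rete were lower in M + E2 (57.7 to 96.6 against 173 to 210 CPM in Sow), as were granulocyte markers (7.93 to 14.8 against 21.2 to 80.6 CPM). The part of these differences in cell markers in the JUNB level was not tested. Scaling by total counts in place of TMM moved the median of all genes by 0.24 in log2, and JUNB kept its sign (log2 ratio of means −0.51 in place of −0.74).

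With M + G versus Sow, EGR1 had a log2 fold change of 1.07 (SE 0.36) and an adjusted p of 0.141 in edgeR's quasi-likelihood test. It was called with all 3 Sow libraries in the fit (log2 fold change 1.25, adjusted p 0.0250), in a fit of the 2 groups alone (1.11, adjusted p 0.0142), with Sow 2 in place of Sow 3 (1.44, adjusted p 0.0278) and by edgeR's exact test (1.11, adjusted p 5.38e-05). Without M + G 2 the log2 fold change was 0.94. The fit with Sow 2 in place of Sow 3 also called EGR1 in M + E2 versus Sow (log2 fold change 1.04, adjusted p 0.0435), where the main fit gave 0.64 (SE 0.36). Sow 2 had the lowest EGR1 level of the 15 libraries, at 38.3 CPM. Endothelial markers summed to between 823 and 1005 CPM in M + G and to between 367 and 523 CPM in Sow. The median of the log2 fold changes of the 9 markers was 0.85. For the 6 smooth muscle markers it was 1.29, with 6 of 6 higher in M + G. Their sums overlapped (610 to 2426 CPM in M + G, 288 to 647 CPM in Sow). The part of either marker set in the EGR1 level was not tested. JUNB had a log2 fold change of −0.59 (SE 0.22) in M + G versus Sow, with an adjusted p of 0.153. These were 2 of 8 genes with an unadjusted p below 0.05, against 23.6% of all tested genes.

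With Soy versus Sow, GADD45B and JUNB had unadjusted p below 0.05 (2 of 8 genes, against 15.0% of all tested genes). The log2 fold change was −0.79 (SE 0.32) for GADD45B and −0.61 (SE 0.22) for JUNB, with adjusted p of 0.322 and 0.320 in edgeR's quasi-likelihood test. With Sow 2 in place of Sow unnumbered, the log2 fold change of GADD45B was −0.48. FOS (1.24, SE 0.64) and FOSB (2.15, SE 1.08) had larger log2 fold changes and larger errors, with adjusted p of 0.347 and 0.343, and Soy 3 held most of the summed level of the Soy libraries for either gene. Without Soy 3 these values were 0.43 for FOS and 0.95 for FOSB. The 6 smooth muscle markers had a median log2 fold change of 2.05 in Soy versus Sow, with 6 of 6 higher in Soy. Their sums overlapped (483 to 4340 CPM in Soy, 288 to 647 CPM in Sow), and their part in the FOS and FOSB levels was not tested.

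With Milk versus Sow, EGR1 and FOS had unadjusted p below 0.05 (2 of 8 genes, against 12.1% of all tested genes). The log2 fold change of FOS was 1.43 (SE 0.65) and that of EGR1 0.88 (SE 0.36), with adjusted p of 0.407 and 0.395 in edgeR's quasi-likelihood test. Without Milk 2 these values were 0.47 for FOS and 0.45 for EGR1. The endothelial markers, at 673 to 1343 CPM in Milk, had a median log2 fold change of 0.98 in the same comparison. For the 6 smooth muscle markers the median was 2.01, with 6 of 6 higher in Milk (828 to 3440 against 288 to 647 CPM in Sow). The part of either marker set in the EGR1 and FOS levels was not tested. The 4 comparisons with Sow use the same Sow libraries, and JUNB was lower than Sow in all 4, with −0.25 (SE 0.22) in Milk.

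Relative to Milk, M + E2 had lower FOSB and JUNB values at an unadjusted p below 0.05 (2 of 8 genes, against 17.7% of all tested genes). The log2 fold change of FOSB was −2.49 (SE 0.97, adjusted p 0.240 in edgeR's quasi-likelihood test) and that of JUNB −0.56 (SE 0.20, adjusted p 0.223). For FOSB it was −0.99 without Milk 2, and −2.94 with an adjusted p of 0.0495 without Milk 3, which is a call. The smooth muscle markers had a median log2 fold change of −1.66 in M + E2 versus Milk, with 6 of 6 lower (468 to 710 against 828 to 3440 CPM). For the Sertoli cell markers it was 0.63, with 9 of 9 higher. The part of either marker set in the FOSB and JUNB levels was not tested. In M + G versus Milk, 0 of 8 genes had an unadjusted p below 0.05 (2.60% of all tested genes), with log2 fold changes from −0.78 to 0.19. In Soy versus Milk it was GADD45B (1 of 8, against 2.44%), with a log2 fold change of −0.82 (SE 0.29) and an adjusted p of 0.999. Between Soy and M + E2, DUSP1 (0.87, SE 0.31) and FOSB (2.69, SE 0.97) had unadjusted p below 0.05 (2 of 8, against 13%), with adjusted p of 0.266 and 0.267, and without Soy 3 the log2 fold changes were 0.52 and 1.49. In Soy versus M + E2 the median was 1.74 for the smooth muscle markers, with 6 of 6 higher in Soy (483 to 4340 against 468 to 710 CPM). It was −0.60 for the Sertoli cell markers, with 9 of 9 lower in Soy. Their part in the DUSP1 and FOSB levels was not tested. With Milk 2, Soy 3 and M + G 2 all left out, 0 of 8 genes were called in each of the 9 tests. Each fold change given above with its standard error for a gene of the set kept its sign.

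**Figure D4:**
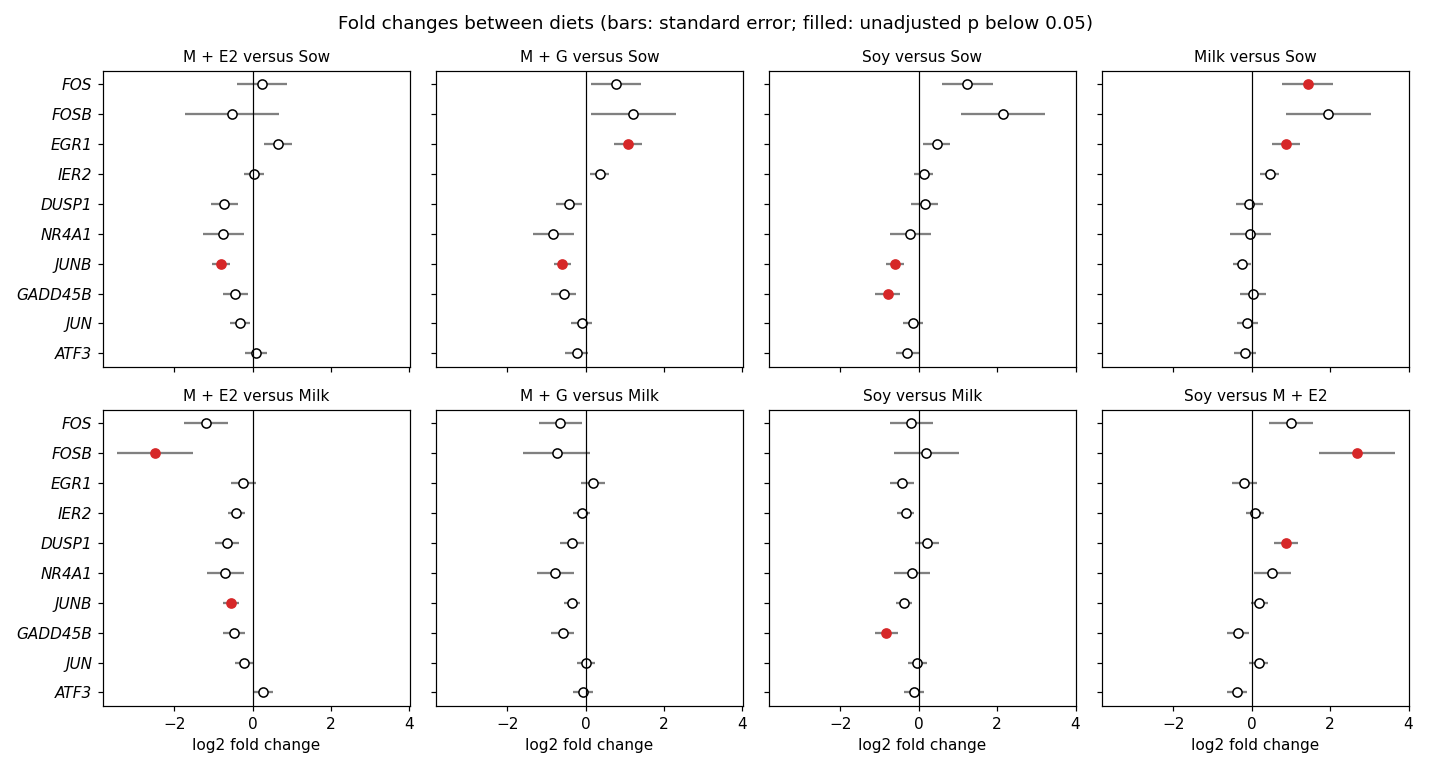
Log2 fold change (x axis) of each gene (y axis) in the 8 comparisons between diets, with bars for the standard error of edgeR's quasi-likelihood fit and filled red points where the unadjusted p was below 0.05. The longest bars belong to FOSB, and JUNB lies left of 0 in all 4 comparisons with Sow, from −0.81 in M + E2 to −0.25 in Milk.

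The genes were then compared with each other across libraries. Over the 15 libraries, the 28 pairs of the 8 genes had a median Pearson's r of 0.38 on log2 CPM, beside a median of −0.010 between these genes and the other tested genes, and 26 of the 28 were above 0. On deviations from the diet means the median was 0.50 and all 28 were above 0. FOS and FOSB had r = 0.83, FOS and EGR1 r = 0.67, and FOS and DUSP1 r = 0.64, whereas EGR1 and JUNB had r = −0.19. Without Milk 2, Soy 3 and M + G 2, the median r over 12 libraries was 0.086 with 18 of 28 above 0, and FOS and FOSB had r = 0.26. These libraries were singled out after the levels were seen, so a fall in r among the genes highest in them follows from that choice. Over the 12 libraries, r was highest for JUNB with DUSP1 (0.77) and NR4A1 with GADD45B (0.75). JUNB with GADD45B (0.73) and NR4A1 with DUSP1 (0.68) came next. Over all 15 libraries these pairs had r = 0.60, 0.65, 0.74 and 0.75. EGR1 and DUSP1 had r = −0.44 over the 12 and 0.092 over the 15. All of these points share their library and its depth, and the values are given as a description.

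The other genes whose log2 CPM followed the mean of the set most closely over the 15 libraries were CCL5, CD14, ENHO, TSPAN2, TBX18, CSGALNACT1 and ITGB3, with Pearson's r from 0.82 to 0.91. Without Milk 2, Soy 3 and M + G 2 their r over 12 libraries was between 0.41 for ITGB3 and 0.80 for CCL5. CCL5 is a chemokine and CD14 a receptor of monocytes and macrophages, and TBX18 is a transcription factor of mesenchymal and mural cells. CCL5 was at 23.4 CPM in Milk 2, 17.3 in Soy 3 and 15.3 in M + G 2, with M + E2 2 at 15.9 CPM, so it was not confined to the 3 libraries. Gene by gene, FOS was most like CORO1C, an actin-binding protein (r = 0.94), FOSB like PTPRR, a phosphatase of MAP kinases (0.94), EGR1 like NTN3, a netrin (0.96), and JUNB like CEBPD, a transcription factor of the acute phase response (0.90). DUSP1 was most like MET, the receptor of hepatocyte growth factor (0.84), and GADD45B like CXCL8, a chemokine for neutrophils (0.83). Over the 12 libraries these values were 0.53 for FOS with CORO1C, 0.78 for FOSB with PTPRR and 0.73 for DUSP1 with MET, and 0.95, 0.93 and 0.84 for EGR1 with NTN3, JUNB with CEBPD and GADD45B with CXCL8. CXCL8 had between 0 and 11 reads in a library, so its likeness to GADD45B rests on very few reads.

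The other genes of the same response were read from fixed lists. The shares of all tested genes called, against which their counts are read, were 5.0% in M + E2 versus Sow, 0.147% in Soy versus M + E2, at most 0.0576% in the other comparisons of 2 diets and 0.0640% for any difference. Among 45 further immediate early genes, 0 were called in any comparison, and in M + E2 versus Sow their median log2 fold change was −0.13, with 18 higher and 27 lower. SRF, the factor through which many immediate early genes are induced, had a mean of 26.5 ± 3.52 CPM in Sow, 52.9 ± 10.9 in M + E2, 47.3 ± 7.54 in Milk, 47.9 ± 1.36 in M + G and 44.4 ± 3.78 in Soy (SD, n = 3). Its log2 fold change in M + E2 versus Sow, from the fit without Sow 2, was 0.82 (SE 0.19, adjusted p 0.0374 in edgeR's quasi-likelihood test), under the 2-fold limit. KLF10, a zinc finger factor induced by TGF-beta, was at 88.0 ± 15.1 CPM in Sow and between 51.0 ± 6.07 and 60.4 ± 2.11 CPM in the other diets, and SGK1, a kinase that glucocorticoids induce, was at 25.7 ± 3.11 CPM in M + E2 and at 46.7 ± 7.05 CPM in Sow. In edgeR's quasi-likelihood test of any difference, the adjusted p was 0.202 for KLF10, 0.210 for SGK1 and 0.210 for SRF.

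In the remaining lists, 0 of 8 other AP-1 genes, 0 of 9 other MAP kinase phosphatases, 0 of 11 genes of the GADD45 family and p53 targets, 0 of 15 genes of the integrated stress and unfolded protein responses, and 0 of 27 upstream kinases and transcription factors were called in any comparison. Of 13 heat shock genes, 2 passed the test with lower values under M + E2 than under Sow (background 5.0% in either direction). Sow means are given here over the 2 libraries tested. The co-chaperone DNAJA1 was at 444 ± 56.3 CPM in M + E2 against 1088 ± 181 in Sow (log2 fold change −1.36, SE 0.28, adjusted p 0.0374). The mitochondrial chaperonin HSPE1 was at 269 ± 50.1 against 934 ± 40.8 CPM (−1.86, SE 0.48, adjusted p 0.0432). HSPB8, a small heat shock protein, was higher in Soy than in M + E2 (1 of 13, background 0.147%, 104 ± 9.66 against 50.7 ± 11.3 CPM, log2 fold change 1.10, SE 0.19, adjusted p 0.0431). Of 10 glucocorticoid response genes 1 was called (background 5.0%), PDK4, a kinase that restrains pyruvate use. PDK4 was lower in M + E2 than in Sow (57.7 ± 2.64 against 142 ± 0.876 CPM, log2 fold change −1.36, SE 0.27, adjusted p 0.0356). These calls are from edgeR's quasi-likelihood test with 2 Sow libraries, and each was lost, on p or on the 2-fold limit, when any M + E2 library, Soy 2 or M + G 3 was left out (adjusted p from 0.0368 to 0.230 over the fits that lost a call). DNAJA1 was also lost without M + G 1, HSPE1 without M + G 1 or M + G 2, PDK4 without Sow unnumbered or Sow 3, and HSPB8 without Sow unnumbered, Sow 3, Soy unnumbered or M + G 2.

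The lists were also read library by library. Of the 45 further immediate early genes, 31 were highest of their diet in Milk 2, 34 in Soy 3 and 33 in M + G 2, and 24 were highest in all 3, against 10.4% of all tested genes. Among these 24 are EGR2, CCN1, CCN2, MYC, IER3, KLF6 and ZFP36, named here after their values were seen. Sow 3 was the highest Sow library for 25 of the 45 and M + E2 2 the highest M + E2 library for 24. Of the other lists, 4 of 10 glucocorticoid response genes (NR3C1, KLF9, CRISPLD2 and ERRFI1), 1 of 11 genes of the GADD45 family and p53 targets (PLK3), 1 of 27 upstream genes (ELK3), 0 of 13 heat shock genes and 0 of 15 integrated stress and unfolded protein response genes were highest in all of Milk 2, Soy 3 and M + G 2, and neither were ATF3 and GADD45B. Of the 9 other phosphatases it was DUSP6 alone, and of the 8 other AP-1 genes MAFF and JDP2. The difference between lists was not tested.

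**Figure D5:**
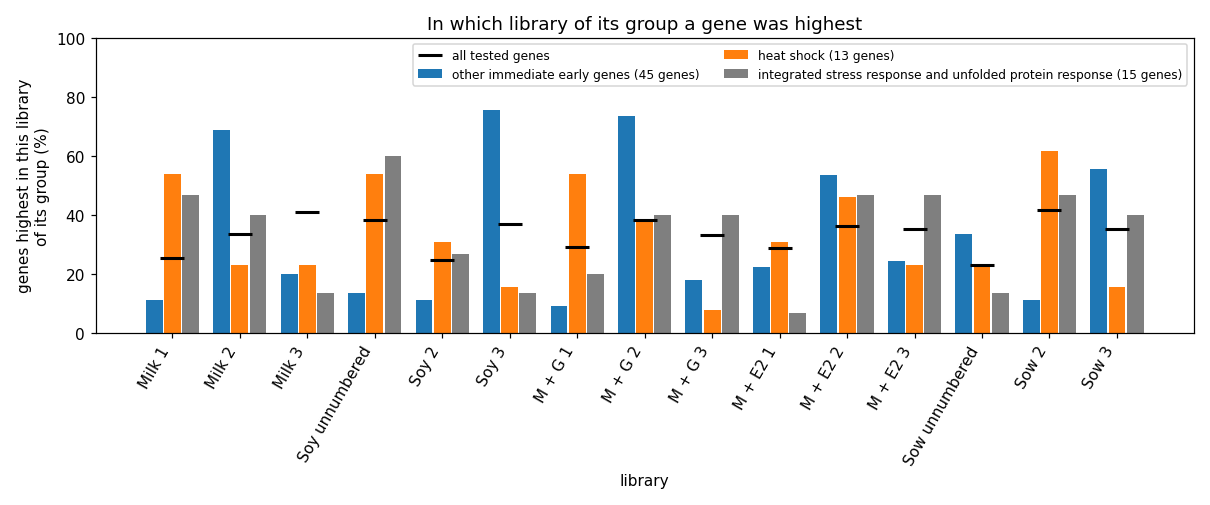
Percentage of the genes of a list (y axis, 0 to 100) that were highest in a library among the libraries of its diet (x axis), for 45 further immediate early genes, 13 heat shock genes and 15 genes of the integrated stress and unfolded protein responses, with a black line for all tested genes. The blue bars of the immediate early genes stand above the line in Milk 2, Soy 3, M + G 2, M + E2 2, Sow 3 and Sow unnumbered.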

How the data were processed

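Testis RNA was sequenced by the study as single-end reads, which were trimmed and mapped with the CLC Genomics Workbench to a curated library of pig genes, with the rest mapped to the Ensembl assembly Sscrofa11.1. The authors deposited raw counts per gene and library. Groups were taken from the labels and column names. The columns of Sow and Soy without a number were used as replicates without a number. The software was edgeR 4.0.16, DESeq2 1.42.0 and limma 3.58.1 under R 4.3.3. Genes were kept by filterByExpr (minimum count 10), leaving 15634 genes over 14 libraries and 15328 over 15. Library sizes were scaled by TMM. The main test was edgeR's quasi-likelihood F test, from 1 fit of all groups without Sow 2, which the study had excluded, and p-values were adjusted by Benjamini-Hochberg over all tested genes. The thresholds are those of the study, which used the exact test. The steps were tested on simulated data. Positions came from RefSeq for Sscrofa11.1. No sequence is shown.

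The members and lists were chosen with earlier results of these data known. All members were described. Fold changes are given where the unadjusted p was below 0.05, with the range or single values of others, and of each list the genes with the smallest p and those called. Of the genes most like the set, those with the highest r are named, and an item among them is not reported here. As a check of pairing, each library's deviation from its diet mean was correlated with that of the library of the same number. This gave 0.23, 0.49 and 0.41 for Milk with M + G. It gave −0.32 to −0.059 for Milk with M + E2 and −0.13 to 0.12 for M + E2 with M + G. Libraries of unlike number were not correlated, so the check cannot tell whether the numbers pair the libraries. Alternatives were other Sow libraries, fits of 2 groups, each library left out, a block for the replicate number, other filters and scaling, DESeq2 and the exact test, and adjusted p alone. Counts cover counting error only.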

Additional observations from a re-analysis of the deposited data

How the results depend on the processing

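In the main fit 0 of the 8 genes were called in every comparison, and the number called stayed at 0 except as follows. It was 1 in M + E2 versus Sow with adjusted p alone (JUNB), and 0 to 1 over the fits that leave out a library (EGR1 without Sow 3). It was 1 in M + G versus Sow with all 3 Sow libraries, with only the 2 groups compared and with edgeR's exact test, and 0 to 1 over the fits that leave out a library (EGR1 in each case). It was 0 to 1 in M + E2 versus Milk over the fits that leave out a library (FOSB without Milk 3). When Sow unnumbered or Sow 3 was left out, Sow 2 was put back. The fit with the replicate number as a block gave 0 of 8 in every comparison. Only numbered libraries entered it, so that Sow was held by Sow 3 alone, and it says nothing of stability in the comparisons with Sow. No fold change that the text gives with its standard error for a gene of the set turned its sign under any alternative. The ends of the M + G versus Milk range are not among these. Without Milk 1, EGR1 was at 1.15 in Milk versus Sow and at 1.07 in M + G versus Sow. Its M + G versus Milk value, 0.19 in the main fit, thus turned its sign there. The cause of the changed calls was not tested.

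The counts over all tested genes moved far more. Over all alternatives they ran from 2 to 3324 in M + E2 versus Sow (781 in the main fit), from 0 to 2039 in M + G versus Sow (9), from 0 to 54 in Soy versus Sow (2), from 0 to 30 in Milk versus Sow (3), from 0 to 1256 in M + E2 versus Milk (0), from 0 to 203 in Soy versus M + E2 (23), from 0 to 2 in M + G versus Milk (0), from 0 to 6 in Soy versus Milk (0), and from 0 to 1168 for any difference (10). With the replicate block, which only numbered libraries entered, the M + E2 versus Sow count was 11. The same numbered libraries without the block, and the fit without Milk 2, Soy 3 and M + G 2, were added after the data were seen. FOSB rested on 1 to 106 reads a library, so its values carry the most counting error of the set.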
